A study of Mus musculus with 8 samples.

Results

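The mouse mitochondrial genome, chromosome M, carries 37 genes, and the deposited count table was searched for every gene whose symbol starts with mt-. It held 24 such genes among 33105, namely all 13 mRNAs, both rRNAs and 9 of the 22 tRNAs. The other 13 tRNA genes were not analysed here. Hearts came from C57BL/6J mice that had either a Sham procedure or minimally invasive surgery that left the mitral valve leaking (mitral regurgitation, MR), with 4 libraries in each group. The study asked about the signalling behind the hypertrophy that follows such volume overload, and about genes that characterise it. The age and sex of the mice, the time after surgery, the chamber sampled and whether each library was a separate animal are not stated in the labels. P-values therefore reflect only how these libraries varied, and part of that variation may be technical.

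Both strands of mitochondrial DNA are transcribed as long precursors that run through many genes. The tRNAs that lie between most of the mRNAs and rRNAs are cut out, which frees the neighbouring transcripts. The mRNAs encode core subunits of respiratory chain complexes I, III and IV and of ATP synthase (complex V), and the rRNAs and tRNAs serve the organelle's own ribosomes. All other subunits, and every factor that copies, transcribes and processes mitochondrial DNA and RNA, are encoded in the nucleus. The heart depends on oxidative phosphorylation and is rich in mitochondria, so these transcripts are abundant there. In bulk tissue, fewer cardiomyocytes and less mitochondrial RNA per cell cannot be told apart.

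Library totals were 42291511 to 58658094 counts, and 1 count was worth 0.0171 to 0.0237 CPM, that is, counts scaled to a common library total. In the whole table, 76 of 16603 genes tested passed a false discovery rate of 0.05, which is 0.458%, with 40 higher and 36 lower in MR. That number rested on single libraries: it was 887 without Sham replicate 3 and 3 without Sham replicate 2. Summed cardiomyocyte markers (8 genes, Myh6 and Tnnt2 among them) were at 49030 to 56570 CPM in Sham and 45360 to 51310 in MR, so both groups were heart muscle by these markers. Summed neutrophil markers (5 genes) were at 5.21 to 60.5 CPM in Sham and 1.01 to 2.98 in MR, without overlap. On their own, S100a8, S100a9 and Retnlg did not overlap between groups, whereas Ngp and Ly6g did. None of the 4 tested was called (edgeR adjusted p from 0.0804 to 0.210). The summed atrial markers (4 genes) were at 44.2 to 70.4 and 95.03 to 216 CPM, also without overlap, but Nppa, which the stressed ventricle also expresses, made up most of that sum (50.8 ± 11.7 and 118 ± 60.8 CPM, SD, n = 4 each), and Myl7, Myl4 and Sln overlapped between groups. The summed levels of fibroblast, endothelial, smooth muscle, macrophage, erythroid and adipocyte markers overlapped. Among them Col1a1, a fibroblast collagen gene, was higher in MR on its own (42.8 ± 11.4 and 77.0 ± 5.15 CPM, log2 fold change 0.81, edgeR adjusted p = 0.0483). Of the 6 fibroblast markers, 3 had a positive and 3 a negative log2 fold change, and only Col1a1 was called. No marker was at 0 in all libraries. The part of these shifts in any result below was not tested.

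Mitochondrial transcripts made up 25.6% to 28.6% of each library's counts. Their share was 27.4%, 28.0%, 28.5% and 25.6% in Sham, in the order of replicates 1 to 4 kept below, and 27.5%, 27.9%, 28.6% and 26.9% in MR. Sham replicate 4 was the lowest library, MR replicate 3 the highest, and the groups overlapped. The means were 27.4 ± 1.26% in Sham and 27.7 ± 0.709% in MR (SD, n = 4 each), a difference of 0.324 percentage points (exact two-sided permutation p = 0.686, adjusted p = 0.838 over 11 class measures). Without Sham replicate 4 the difference was −0.264 points, so its sign rested on that library. At this depth the widest 95% Wilson interval of a library's share spanned 0.0272 points. The libraries thus differed by more than counting error alone.

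The mRNAs supplied nearly all of that share. They took 25.9%, 26.7%, 27.0% and 24.3% of counts in the Sham libraries and 26.1%, 26.6%, 27.1% and 25.6% in the MR libraries, with means of 26.0 ± 1.22% and 26.3 ± 0.674% (exact permutation p = 0.657, adjusted p = 0.838). The rRNAs took 1.51%, 1.31%, 1.47% and 1.33% in Sham and 1.37%, 1.32%, 1.44% and 1.33% in MR, with means of 1.41 ± 0.102% and 1.36 ± 0.0535% (exact permutation p = 0.457, adjusted p = 0.838). The tRNAs analysed took 0.0182%, 0.0215%, 0.0130% and 0.00463% in Sham and 0.0251%, 0.0232%, 0.0110% and 0.0227% in MR (exact permutation p = 0.257, adjusted p = 0.838). In each class the groups overlapped. The lowest tRNA share, in Sham replicate 4, was in the same library as the lowest mRNA share. The libraries were made with an mRNA kit, so the low rRNA level relative to the mRNAs describes these libraries, and its distance from the level in tissue was not tested. Across the 8 libraries the mRNA and rRNA shares gave r = 0.32 (permutation p = 0.453, adjusted p = 0.453) and rho = 0.12 (permutation p = 0.793, adjusted p = 0.793). Without the libraries farthest from the median mRNA share, MR replicate 3 and Sham replicate 4, r was 0.055 (permutation p = 0.90).

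**Figure D1:**
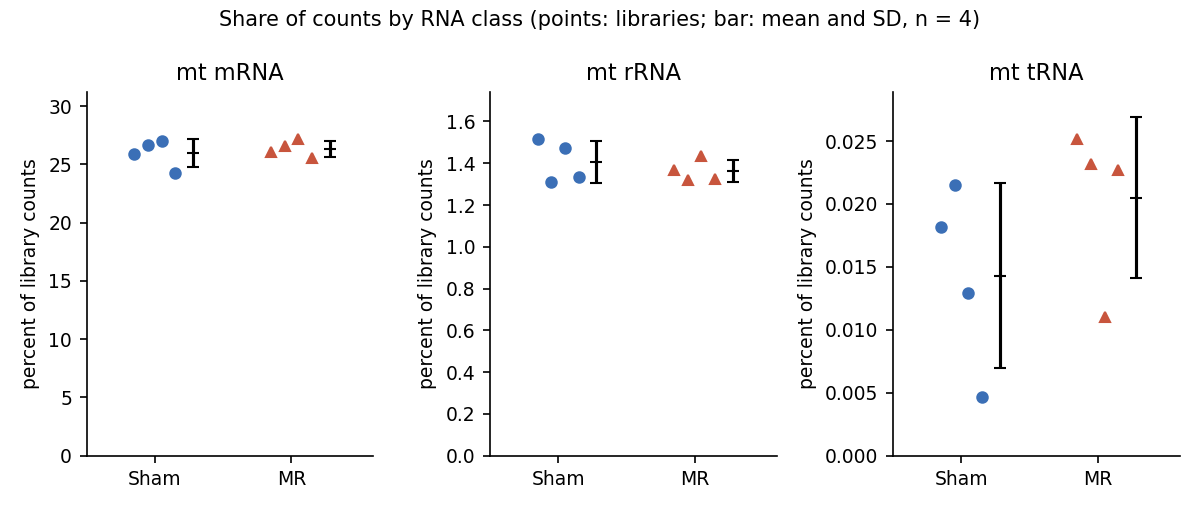
Percent of a library's counts (vertical axis, from 0) held by mt mRNAs, rRNAs and tRNAs in Sham (circles) and MR (triangles) libraries, with the mean and SD (n = 4) beside the points. Sham and MR points overlap in all 3 classes, and the tRNA share spreads from 0.00463% to 0.0251%.

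Of the 24 mitochondrial genes, 17 passed the filter on low counts: 13 mRNAs, 2 rRNAs, mt-Tp and mt-Tc. None of the 17 was called, against 0.458% of all genes tested, in the edgeR quasi-likelihood test with Benjamini-Hochberg adjustment, and none had an unadjusted p under 0.05, beside 15.1% of all genes. DESeq2, the only other tool run, also called none of them. Adjusted p-values ran from 0.543 to 0.986. The median log2 fold change of the 13 mRNAs was −0.02, beside 0.00 for all genes tested. The sign was negative for 12 mRNAs and positive for mt-Nd5, and it turned positive for mt-Nd1, mt-Nd2, mt-Co2, mt-Co3, mt-Nd4 and mt-Cytb when libraries were scaled by their totals alone. That scaling moved the median of all genes to 0.05. No direction was therefore assigned to the mRNAs as a group.

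**Figure D2:**
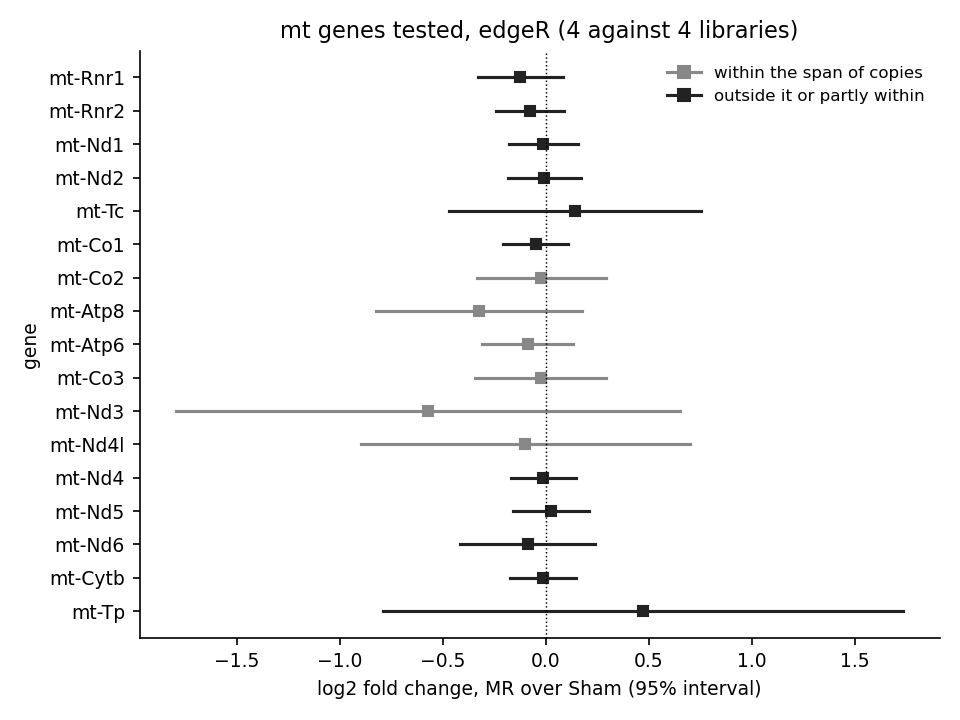
The log2 fold change of MR over Sham for each of the 17 mt genes tested, with its 95% interval from edgeR, in genome order. All 17 intervals span 0, and the widest belong to mt-Tp and mt-Nd3.

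Positions below are those of GRCm38, and all genes described next lie on the plus strand except mt-Nd6 on the minus strand. Complex I, which passes electrons from NADH to ubiquinone, has 7 mitochondrially encoded subunits. The most abundant of their mRNAs by share, mt-Nd1 (chrM:2751-3707), took 3.21%, 3.32%, 3.21% and 2.86% of counts in Sham and 3.20%, 3.35%, 3.25% and 3.09% in MR. The Sham replicate 4 value was again the lowest and the groups overlapped. Its fold change had a 95% interval of 0.883 to 1.12 (log2 fold change −0.01 ± 0.08 SE, edgeR adjusted p = 0.968). The mt-Nd2 (chrM:3914-4951) mRNA took 2.14%, 2.18%, 2.18% and 1.83% in Sham and 2.08%, 2.09%, 2.17% and 2.22% in MR. Here too Sham replicate 4 was lowest, and the other Sham values lay among the MR values. The mt-Nd2 interval was 0.882 to 1.13 (adjusted p = 0.986). The mt-Nd4 (chrM:10167-11544) mRNA took 2.02%, 2.05%, 2.08% and 1.92% in Sham and 1.98%, 2.19%, 2.08% and 2.004% in MR, with an interval of 0.890 to 1.11 (adjusted p = 0.969). For mt-Nd4 the lowest library was once more Sham replicate 4 and the highest MR replicate 2.

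The mt-Nd5 (chrM:11742-13565) mRNA, which encodes one of the proton-pumping subunits of complex I, had its lowest value in another library. It took 2.25%, 2.81%, 2.92% and 2.60% of counts in Sham and 2.85%, 2.64%, 2.91% and 2.71% in MR. Sham replicate 1 was the lowest library, and without it the sign of the log2 fold change turned from 0.03 to −0.04. The interval was 0.895 to 1.16 (adjusted p = 0.927). The mt-Nd6 (chrM:13552-14070) mRNA is the single protein-coding transcript read from the other strand. It took 0.358%, 0.202%, 0.247% and 0.230% of counts in Sham and 0.252%, 0.230%, 0.255% and 0.270% in MR. Sham libraries held both its highest and its lowest value, replicates 1 and 2, and all MR values lay between them. Its interval was 0.750 to 1.18 (log2 fold change −0.09 ± 0.15 SE, adjusted p = 0.835). Without Sham replicate 1 its log2 fold change was 0.115. Sham replicate 1 thus held the lowest mt-Nd5 level and the highest mt-Nd6 level, although these genes adjoin.

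Those neighbours overlap tail to tail on opposite strands by 14 bases, and whether the counting used strand is not given, so reads of the opposite transcript cannot be told apart from mt-Nd6 reads. The junction is shown because it carries that ambiguity, with the bases shared by both genes in capitals (GENCODE M21 transcripts, GRCm38, chrM:13532-13585, plus strand).
mt-Nd5 and mt-Nd6 junction: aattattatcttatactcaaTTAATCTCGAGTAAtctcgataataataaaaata

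The short complex I mRNAs, mt-Nd3 and mt-Nd4l, were far more variable. Both lie within the span of the chromosome 1 copies described below, and the part of length or copies in this variation was not tested. The mt-Nd3 (chrM:9459-9806) mRNA took 0.0483%, 0.0478%, 0.0196% and 0.0255% of counts in Sham and 0.0223%, 0.0150%, 0.0153% and 0.0461% in MR. Sham replicates 1 and 2 and MR replicate 4 were high and the other libraries low, so each group held both high and low libraries. Its log2 fold change was −0.57 ± 0.51 SE (adjusted p = 0.664), and its interval, 0.288 to 1.57, covered both a large fall and a rise. Leaving out 1 library gave −1.06 (without MR replicate 4) to −0.38 (without Sham replicate 1). The mt-Nd4l (chrM:9877-10173) mRNA took 0.0210%, 0.0238%, 0.0460% and 0.0322% in Sham and 0.0370%, 0.0167%, 0.0272% and 0.0370% in MR (log2 fold change −0.10 ± 0.34 SE, adjusted p = 0.930). Sham replicate 3 was the highest and MR replicate 2 the lowest for mt-Nd4l.

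The only subunit of complex III encoded in the mitochondrion is cytochrome b. Its mRNA, mt-Cytb (chrM:14145-15288), took 4.16%, 4.14%, 4.50% and 3.94% of counts in Sham and 4.21%, 4.28%, 4.52% and 4.09% in MR. Replicate 3 was highest within both groups, and the groups overlapped. The interval of its fold change was 0.886 to 1.11 (log2 fold change −0.01 ± 0.07 SE, adjusted p = 0.956).

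Complex IV, cytochrome c oxidase, reduces oxygen, and its catalytic subunit is encoded by mt-Co1 (chrM:5328-6872). This mRNA took 11.0%, 11.3%, 11.2% and 10.3% of all counts in Sham and 10.8%, 11.1%, 11.3% and 10.5% in MR. It alone made up 38.9% to 40.3% of mitochondrial counts, and its groups overlapped. Its fold change had an interval of 0.868 to 1.08 (log2 fold change −0.05 ± 0.07 SE, adjusted p = 0.811). The mt-Co2 (chrM:7013-7696) mRNA, for the subunit that accepts electrons from cytochrome c, took 0.269%, 0.249%, 0.327% and 0.188% in Sham and 0.263%, 0.267%, 0.297% and 0.223% in MR, with an interval of 0.793 to 1.23 (adjusted p = 0.968). The mt-Co3 (chrM:8607-9390) mRNA took 0.271%, 0.242%, 0.161% and 0.194% in Sham and 0.194%, 0.230%, 0.221% and 0.238% in MR, with an interval of 0.789 to 1.23 (adjusted p = 0.964). For both genes the Sham libraries spanned the whole MR range. Sham replicate 3 was the highest library for mt-Co2 and the lowest for mt-Co3.

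Complex V uses the proton gradient to make ATP, and mt-Atp6 and mt-Atp8 encode membrane subunits of it. The mt-Atp6 (chrM:7927-8607) mRNA took 0.119%, 0.152%, 0.165% and 0.152% of counts in Sham and 0.141%, 0.136%, 0.128% and 0.166% in MR (log2 fold change −0.09 ± 0.10 SE, adjusted p = 0.742). The mt-Atp8 mRNA took 0.00310%, 0.00294%, 0.00334% and 0.00318% in Sham and 0.00384%, 0.00174%, 0.00266% and 0.00210% in MR. The 4 Sham values of mt-Atp8 lay close together, whereas MR replicate 1 was above and the other MR libraries below them. Its log2 fold change was −0.32 ± 0.22 SE, with an interval of 0.565 to 1.13 and the lowest adjusted p of the 17, 0.543. Without MR replicate 1 it was −0.58 (adjusted p = 0.0855), and without MR replicate 2 it was −0.17 (adjusted p = 0.711). The mt-Atp8 and mt-Atp6 reading frames are part of the same mRNA and overlap by 43 bases, so reads in those bases belong to both genes. How the counting assigned such reads is not given. The mt-Atp8 gene is printed because it is 204 bases long, with the 43 shared bases in capitals (GENCODE M21, GRCm38, chrM:7766-7969, plus strand).
mt-Atp8: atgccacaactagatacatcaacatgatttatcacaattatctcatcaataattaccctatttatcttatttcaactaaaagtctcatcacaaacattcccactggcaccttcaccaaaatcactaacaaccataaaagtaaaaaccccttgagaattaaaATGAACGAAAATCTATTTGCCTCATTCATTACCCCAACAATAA

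The 2 rRNAs are the RNA cores of the small and large mitochondrial ribosomal subunits and lie at the start of the plus-strand transcript. The small-subunit rRNA, mt-Rnr1 (chrM:70-1024), took 0.515%, 0.389%, 0.447% and 0.432% of counts in Sham and 0.425%, 0.436%, 0.454% and 0.373% in MR. Sham replicate 1 was highest and MR replicate 4 lowest. The log2 fold change was −0.12 ± 0.10 SE, with an interval of 0.795 to 1.06 (adjusted p = 0.594). The large-subunit rRNA, mt-Rnr2 (chrM:1094-2675), took 0.999%, 0.921%, 1.03% and 0.9004% in Sham and 0.943%, 0.886%, 0.984% and 0.952% in MR (log2 fold change −0.08 ± 0.08 SE, adjusted p = 0.697). The rRNA groups overlapped for both genes. Per 100 mRNA counts, Sham libraries held 5.42 ± 0.387 rRNA counts and MR libraries 5.18 ± 0.139 (SD, n = 4 each, exact permutation p = 0.314, adjusted p = 0.838). The mt-Rnr1 share of rRNA counts was 31.6 ± 1.97% and 30.9 ± 2.03% (exact permutation p = 0.657, adjusted p = 0.838).

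Transfer RNAs are too short and too structured to be captured well by mRNA libraries, and one of them held nearly all tRNA counts. The proline tRNA, mt-Tp, had 7989, 9273, 5643 and 2068 counts in the Sham libraries and 12155, 10192, 4577 and 13262 in the MR libraries. It made up 96.6% to 99.4% of tRNA counts in each library. MR replicate 3 was low and lay among the Sham libraries, Sham replicate 4 was lowest, and the groups overlapped. Its log2 fold change was 0.47 ± 0.52 SE, with an interval of 0.578 to 3.33 (adjusted p = 0.733). Leaving out 1 library gave 0.17 (without Sham replicate 4) to 0.75 (without Sham replicate 2). The cysteine tRNA, mt-Tc, had 94, 62, 96 and 70 counts in Sham and 168, 76, 78 and 72 in MR. Only MR replicate 1 lay above the Sham libraries, and without it the log2 fold change of mt-Tc went from 0.14 to −0.23 (adjusted p = 0.861 with all libraries).

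The glutamate tRNA, mt-Te, had 2 to 14 counts per library. The leucine tRNA mt-Tl1 had 2 counts in Sham replicates 2 and 3 and 0 elsewhere, and the alanine tRNA mt-Ta had 4 counts in MR replicate 1 and 0 elsewhere. The remaining members, mt-Tq, mt-Tr, mt-Ts1 and mt-Tn, had at most 2 counts in any library, and mt-Tn had 0 in all. Where none was counted, the depth still allows a level of up to 3 counts, 0.0511 to 0.0709 CPM. These 7 tRNAs were below the filter and were not tested. Of the 9 tRNA genes analysed, 7 lie on the minus strand, mt-Tp and mt-Tc among them. Whether the counting used strand is not given, so for these genes reads of opposite transcripts cannot be told apart from tRNA reads. The 2 tRNAs tested are printed 5′ to 3′ with the anticodon in capitals, since they account for nearly all tRNA counts (GENCODE M21, GRCm38, minus strand, chrM:15356-15422 for mt-Tp and chrM:5192-5257 for mt-Tc).
mt-Tp: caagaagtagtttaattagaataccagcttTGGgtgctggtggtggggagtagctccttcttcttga
mt-Tc: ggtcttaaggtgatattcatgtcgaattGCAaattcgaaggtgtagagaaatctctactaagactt

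Counts differed greatly between genes of one genome once length was taken into account. In CPM per kilobase of gene, mt-Co1 averaged 70740 over the 8 libraries, mt-Cytb 36970, mt-Nd1 33300 and mt-Nd2 20330. Next came mt-Nd5 at 14860, mt-Nd4 at 14810, mt-Nd6 at 4919 and mt-Co2 at 3804, and then mt-Co3 at 2792, mt-Atp6 at 2126, mt-Nd4l at 1014, mt-Nd3 at 861.7 and mt-Atp8 at 140.2. On this scale mt-Co1 was 18.6 times mt-Co2, which encodes a subunit of the same complex, and 504.6 times mt-Atp8. In that order, mt-Cytb and mt-Nd1 overlapped over libraries, as did mt-Nd5 and mt-Nd4, mt-Nd6 and mt-Co2, mt-Co2 and mt-Co3, mt-Co3 and mt-Atp6, and mt-Nd4l and mt-Nd3. All other neighbours in the order did not overlap. These values are counts assigned to each gene. Since mt-Atp8 and mt-Atp6 are part of the same mRNA, 140.2 and 2126 cannot be read as levels of separate transcripts. The mt-Nd4l and mt-Nd4 genes also overlap on the same strand, by 7 bases. Part of mt-Co1 and of mt-Nd4 is repeated in the chromosome 1 copies described next. Dividing all their counts by only the bases outside those copies gave 102900 and 40640 (range over libraries 38270 to 43600). That would place mt-Nd4 next to mt-Cytb instead of mt-Nd5, so its place in the order depends on that choice. The rRNAs stood at 6015 (mt-Rnr2) and 4541 (mt-Rnr1) on the same scale, between mt-Nd4 and mt-Co2.

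**Figure D3:**
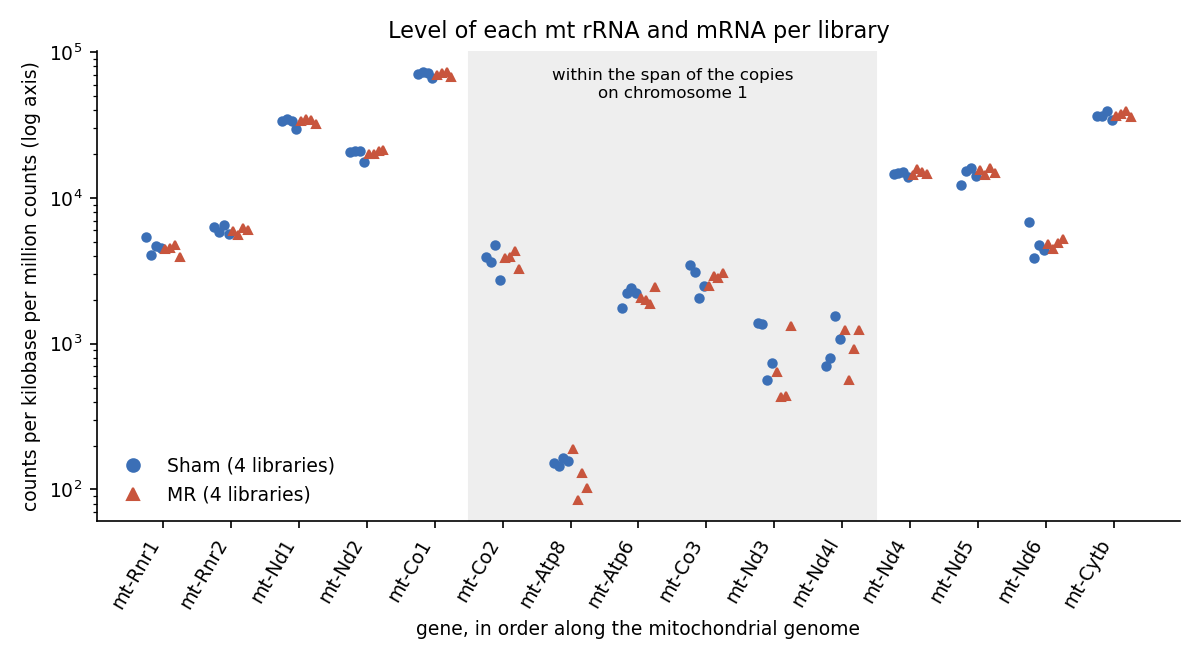
CPM per kilobase of gene (log axis) for the 2 rRNAs and 13 mRNAs in genome order, 1 point per library, Sham as circles and MR as triangles. The 6 mRNAs in the shaded span lie at mean levels of 140.2 to 3804, below the 4919 to 70740 of the other 7, and their libraries scatter more.

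The low levels fell in one place. A run of 7 annotated pseudogenes on chromosome 1 (24611535 to 24616197, minus strand, GRCm38) matches parts of chrM from 6390 to 11042 in the same order, and the 6 mRNAs from mt-Co2 to mt-Nd4l lie within that span. Only transcripts were aligned. For mt-Atp8, 161 of its 204 bases lie between the aligned copies of mt-Co2 and mt-Atp6, so whether chromosome 1 repeats them was not tested. Such nuclear copies of mitochondrial DNA arise when organelle DNA is inserted into a chromosome. Of the 7 pseudogene transcripts, 5 were identical to mitochondrial sequence over their whole length and the lowest identity was 99.71%. The spacing between them equalled that on chrM to within 1 base. The 6 mRNAs within the span held 26.3% of mRNA bases but 2.45% to 2.83% of mRNA counts. Their level per kilobase had a median of 1570, and their coefficient of variation over the 8 libraries was 11.6% to 49.5%, with a median of 20.1%. For the other 7 mRNAs the median level was 20330 and the variation 3.35% to 18.1%, with a median of 4.78%. With each copy's counts added to its gene, the mean level was 5036 for mt-Co2, 3409 for mt-Atp6 and 3601 for mt-Co3. It was 1428 for mt-Nd3 and 1375 for mt-Nd4l, all below that median of 20330. How reads matching both places were counted is not stated, and its part in these levels was not tested.

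The copies differ from the mitochondrial genes at few bases, and one is shown because it separates the pair with the most variable split. The start of mt-Nd3 (chrM:9459-9486, plus strand) and of its copy Gm28438 (chr1:24613092-24613119, minus strand; both from GENCODE M21, GRCm38) differ by T3C, counted from the first base of mt-Nd3 and in capitals. It is the single substitution found between Gm28438 and mt-Nd3.
mt-Nd3: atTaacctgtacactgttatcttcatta
Gm28438: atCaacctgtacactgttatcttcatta

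Counts were assigned to the copies. The 7 copies together took 0.353%, 0.403%, 0.496% and 0.320% of counts in Sham and 0.284%, 0.422%, 0.355% and 0.378% in MR (0.393 ± 0.0767% and 0.360 ± 0.0574%, SD, n = 4 each). The groups overlapped, with Sham replicate 3 highest and MR replicate 1 lowest. The 6 mRNAs within the span took 0.732%, 0.717%, 0.722% and 0.595% in Sham and 0.661%, 0.666%, 0.691% and 0.712% in MR. Most of that sum came from mt-Co2, mt-Co3 and mt-Atp6, so changes in mt-Nd3 and mt-Nd4l could move it little. A wider set of nuclear copies, found by sequence match, took 0.411 ± 0.0789% in Sham and 0.378 ± 0.0575% in MR. In it, Gm13340 on chromosome 2 matched all 1545 bases of mt-Co1 at 97.61% identity and averaged 159.9 CPM. Gm13341 (mt-Co2), Gm4076 (part of mt-Nd5) and Gm13339 (part of mt-Nd2) averaged 7.5, 5.1 and 4.4 CPM. The part of these copies in the mt gene levels was not tested.

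How much of a pair's counts went to the copy differed between genes and libraries. For mt-Nd3 and Gm28438 the copy held 22.8%, 23.3%, 67.0% and 19.2% of the pair's counts in Sham and 32.3%, 75.0%, 47.2% and 22.9% in MR. The libraries with a high copy percentage, Sham replicate 3 and MR replicates 2 and 3, were low for mt-Nd3, whose count is part of the denominator, so that a lower count by itself raises this percentage. Sham replicate 4 was also low for mt-Nd3 but had the lowest copy percentage. For mt-Co3 and Gm28437 it was 17.8%, 18.2%, 40.6% and 17.5% in Sham and 17.5%, 23.5%, 16.7% and 27.1% in MR. The Sham replicate 3 value stood above all others, in the library with the lowest mt-Co3 level.

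For mt-Co2 and Gm28661 the copy held 25.3%, 30.3%, 27.4% and 28.4% in Sham and 15.5%, 25.5%, 16.4% and 26.4% in MR. For mt-Nd4l and Gm10222 it held 17.7% to 44.3%, and for mt-Atp6 and Gm10925 33.5% to 43.6%. The copies of parts of mt-Nd4 (Gm28439) and mt-Co1 (Gm29216) held 1.41% to 2.47% and 0.523% to 0.837%. Within each pair the groups overlapped.

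**Figure D4:**
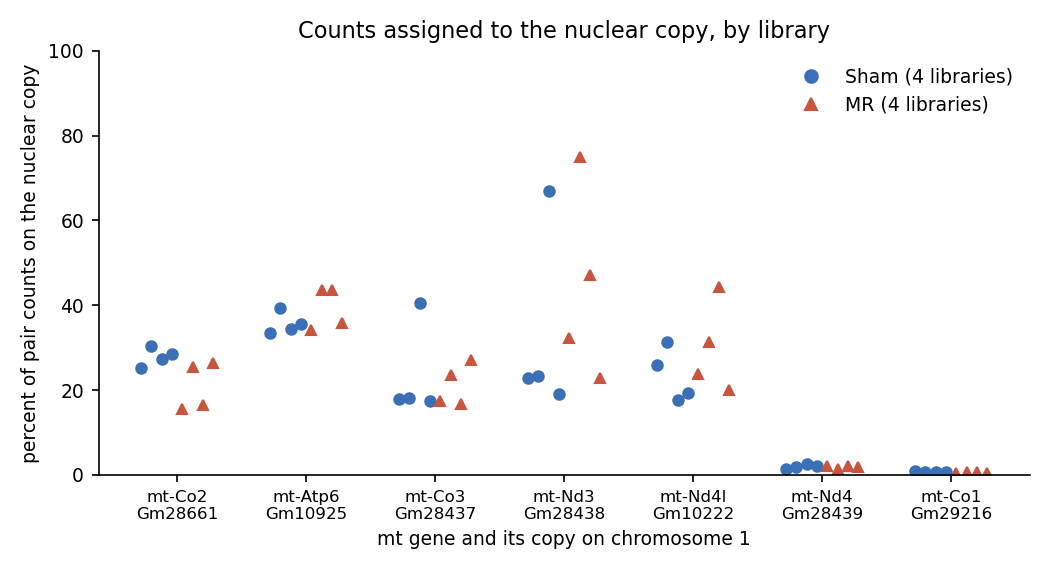
Percent of the counts of each mt gene and its chromosome 1 copy that were assigned to the copy (vertical axis), 1 point per library, Sham as circles and MR as triangles. For mt-Nd3 the libraries range from 19.2% to 75.0%. For mt-Nd4 and mt-Co1, of which the chromosome 1 copies cover only part, all stay at or below 2.47%.

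Adding each copy's counts to its gene narrowed the spread of the most variable members. The highest library was 3.23 times the lowest for mt-Nd3 alone and 2.16 times for the pair, 2.76 and 2.30 times for mt-Nd4l, and 1.68 and 1.40 times for mt-Co3. For mt-Co2 it was 1.74 and 1.72 times, and for mt-Atp6 it was 1.39 times alone and 1.44 times with the copy, so that pair did not narrow. None of the mt genes was called after the addition. The chromosome 1 copies were all tested and none was called, although Gm29216 (log2 fold change −0.31, adjusted p = 0.244) and Gm28661 (−0.56, adjusted p = 0.269) had unadjusted p-values under 0.05. The pair of mt-Co2 and Gm28661 had a log2 fold change of −0.15 (adjusted p = 0.639).

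Relative amounts within the mRNA pool do not depend on scaling to nuclear genes. Complex I mRNAs made up 39.3 ± 0.454% of mRNA counts in Sham and 39.9 ± 0.524% in MR (exact permutation p = 0.143, adjusted p = 0.786). Complex IV mRNAs made up 44.0 ± 0.590% and 43.3 ± 0.424% (exact permutation p = 0.114, adjusted p = 0.786). The share of complex III was 16.1 ± 0.459% and 16.2 ± 0.288%, and that of complex V 0.579 ± 0.0745% and 0.553 ± 0.0759%, with adjusted p of 0.857 and 0.838 by the same exact permutation test. All 4 overlapped between groups. Taken singly, mt-Co1 had the smallest p of the 13 mRNAs. It made up 42.5%, 42.2%, 41.4% and 42.5% of mRNA counts in Sham and 41.5%, 41.9%, 41.5% and 41.0% in MR (exact permutation p = 0.114, adjusted p = 1.0 over 13 genes). Sham replicate 3 lay within the MR range and the other Sham libraries above it.

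The nuclear partners of these subunits were compared in the same libraries. Mitochondrial subunit counts were 6.27, 7.94, 8.40 and 6.64 times those of 77 nuclear subunits of complexes I, III, IV and V in Sham, and 7.54, 7.46, 8.59 and 7.72 times in MR. Sham replicates 1 and 4 were below all MR libraries and Sham replicates 2 and 3 lay among them. The log2 ratio was 0.11 higher in MR (exact permutation p = 0.400, adjusted p = 0.750 over 5 ratios). By complex the log2 difference was 0.09 for I, 0.06 for III, 0.08 for IV and 0.08 for V, with adjusted p from 0.750 to 0.771. Complex V was the one complex whose mitochondrial counts fell below its nuclear counts, at 0.0681 to 0.119 times, and both of its mitochondrial genes lie within the span of the chromosome 1 copies, mt-Atp8 mostly between aligned copies. When genes were weighted equally, by mean log2 counts, the difference over all 4 complexes was −0.01, so the sign of this ratio was not stable.

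**Figure D5:**
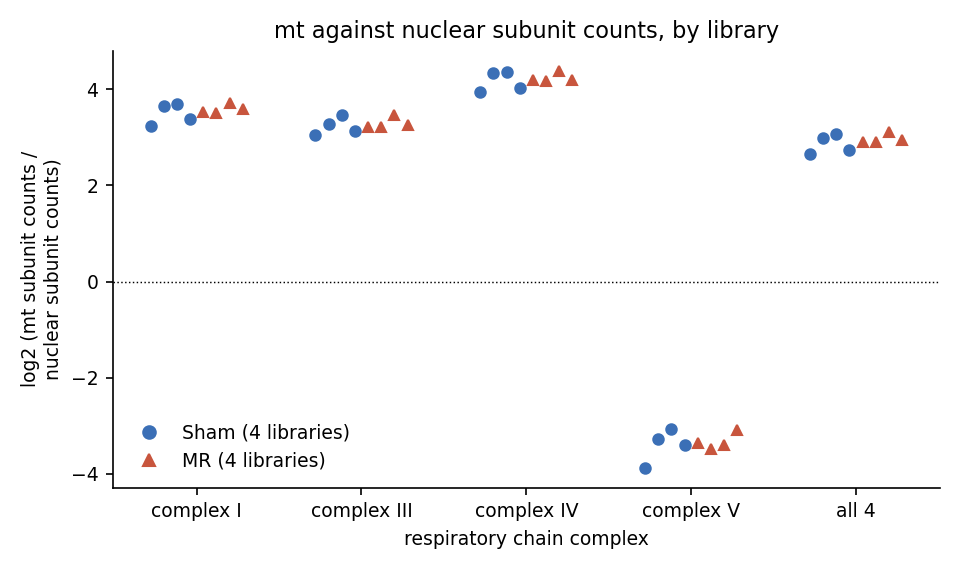
Log2 of summed mt subunit counts over summed nuclear subunit counts of the same complex, 1 point per library, Sham as circles and MR as triangles. Complexes I, III and IV lie above 0 and complex V below it, and Sham and MR points overlap in every column.

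None of the 77 nuclear subunits was called in edgeR, beside 0.458% of all genes tested, and 6 (7.79%) had an unadjusted p under 0.05, beside 15.1% of all genes. Their log2 fold change was negative for 68 and positive for 9, with a median of −0.10 beside 0.00 for all genes. The cardiomyocyte markers leaned the same way, with 7 of 8 negative, a median of −0.23 and 5 with an unadjusted p under 0.05, and their part in the subunit values was not tested. The subunits with the lowest p in each complex were Cox6a2, the striated muscle form of a complex IV subunit, with 808 ± 68.2 CPM in the Sham and 681 ± 39.3 in the MR libraries (log2 fold change −0.29, adjusted p = 0.111), Sdha of complex II, which is outside the 77 because no mt gene encodes a part of it (−0.24, adjusted p = 0.147), Ndufv1 of complex I (−0.28, adjusted p = 0.194), Atp5b of complex V (−0.22, adjusted p = 0.226) and Uqcrh of complex III (−0.14, adjusted p = 0.581). The nuclear subunits took 5.69%, 4.67%, 4.50% and 4.92% of the counts outside chromosome M in Sham and 4.76%, 4.94%, 4.42% and 4.53% in MR, so Sham replicate 1 stood above the other libraries. Their share and the mitochondrial mRNA share gave r = −0.36 (permutation p = 0.350, adjusted p = 0.453) and rho = −0.60 (permutation p = 0.132, adjusted p = 0.265) over the 8 libraries. Without MR replicate 3 and Sham replicate 4, r was −0.33 (permutation p = 0.576).

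The nuclear genes that express the mitochondrial genome were listed by role. Of 74 genes listed, 73 were tested, none was called in edgeR, beside 0.458% of all genes, and 5 (6.85%) had an unadjusted p under 0.05, beside 15.1% of all genes. The log2 fold change was positive for 34 and negative for 39, with a median of −0.01. By role, the median was 0.01 for 10 transcription genes, −0.06 for 11 replication genes, −0.01 for 20 RNA processing genes, 0.02 for 17 tRNA synthetases, −0.01 for 8 tRNA modification genes and −0.11 for 7 nuclear regulators.

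Tfam, which packages mitochondrial DNA and starts its transcription, had 44.2 ± 6.01 CPM in the Sham and 45.8 ± 1.04 in the MR libraries (SD, n = 4 each; log2 fold change 0.00, adjusted p = 0.989). Polrmt, the mitochondrial RNA polymerase, had a log2 fold change of −0.05 (adjusted p = 0.780), and Polg, the catalytic subunit of the DNA polymerase, −0.07 (adjusted p = 0.704). Mars2, the mitochondrial methionyl-tRNA synthetase, had 0.17 (adjusted p = 0.333). Lrpprc, which stabilises mitochondrial mRNAs, had 275 ± 9.82 CPM in the Sham and 255 ± 8.26 in the MR libraries, without overlap between groups (−0.16, adjusted p = 0.295). Prorp, listed as 1110008L16Rik, the nuclease that cuts the 5′ ends of mitochondrial tRNAs, was at 8.30 ± 0.563 and 10.2 ± 0.716 CPM, also without overlap (0.25, adjusted p = 0.217). In the same lists the groups also did not overlap for Elac2 (0.06, edgeR adjusted p = 0.727), Nars2 (−0.15, adjusted p = 0.39) and Rars2 (0.14, adjusted p = 0.45). The share of all genes tested that separate in this way is not given here, so separation alone was not read as a change.

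Ppargc1b, a coactivator that raises expression of nuclear genes for mitochondria, had the lowest p of the 73. It stood at 11.0, 12.8, 13.7 and 14.3 CPM in the Sham libraries, from lowest to highest, and at 15.5, 16.1, 19.8 and 22.1 CPM in the MR libraries. All MR libraries were above all Sham libraries. Picking the lowest p of 73 genes favours such a separation, and the share of all genes that separate is not given here. The log2 fold change was 0.47 ± 0.12 SE and the edgeR adjusted p was 0.0842, so it was not called. It was called without the filter on low counts, in DESeq2 and without Sham replicate 3, with adjusted p from 0.000178 to 0.198 over all 16 other settings. Its relative Ppargc1a had a log2 fold change of −0.24 (adjusted p = 0.202), and Esrra, the nuclear receptor that both coactivate, −0.21 (adjusted p = 0.229). The neutrophil marker sum, Nppa and Col1a1 also differed without overlap between groups. So did the fibroblast marker Pdgfra, the smooth muscle marker Acta2 and the cardiomyocyte marker Myl2. The part of all these markers in the Ppargc1b level was not tested.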

How the data were processed

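Heart RNA of 4 Sham and 4 MR libraries was analysed from 1 deposited table of whole-number read counts per Ensembl gene, with no normalization. Per the labels' protocols, RNA was extracted with TRIzol from frozen powdered heart and an ABclonal mRNA kit was used for the libraries. The submitters' processing notes name HISAT2 2.0.5 and build mm10. For the counting, the tool, strand setting, annotation and treatment of reads with several matches are not given in the sources used. Columns were matched to libraries by their titles and grouped by the treatment label. Title numbers fall in separate blocks for Sham and MR, so any handling that followed them cannot be told apart from MR. Replicate numbers follow accession order and only name libraries. In each library more genes held 2 counts than 1 (2357 to 2470 against 864 to 1050), so both ends of a fragment may have been counted, and intervals and floors, which cover counting error only, may be too narrow.

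Symbols, lengths and sequences came from GENCODE M21 (GRCm38, the assembly that mm10 names), which matched 32350 of 33105 identifiers. Nuclear copies were 7 listed pseudogenes on chromosome 1, aligned to mitochondrial transcripts with blastn 2.17.0. A wider set held every counted pseudogene that matched with at least 90% identity over at least 80% of its length. Genes were filtered (filterByExpr, minimum count 10, minimum total 15), scaled by TMM (factors 0.967 to 1.019) and compared with the robust quasi-likelihood test of edgeR 4.0.16 in R 4.3.3 over all 8 libraries, without covariates. Benjamini-Hochberg adjustment ran over all 16603 genes tested, with a threshold of 0.05. The procedure was tested on simulated data. Shares and ratios were compared by exact two-sided permutation over libraries (70 arrangements, smallest p 0.0286, scipy 1.17.1), adjusted within families of 11, 13 and 5 measures. The 2 correlations used all 40320 permutations. Alternatives were RLE factors, totals only, scaling from genes outside chromosome M, no filter, a filter of 1 CPM in 4 libraries, no robust moderation, DESeq2 1.42.0, each library left out, and, added after the data were seen, copies summed with their genes and a wider set of copies.

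Named genes are all mt mRNAs and rRNAs, the 5 tRNAs with the highest mean count, Tfam, Polrmt, Lrpprc, Polg, Ppargc1a and the 6 lowest p-values among genes that express the mitochondrial genome, the lowest p per complex among nuclear subunits, and copies averaging at least 1 CPM. The other tRNAs are named to account for every member, and Elac2, Nars2 and Rars2 because their groups did not overlap. The members and lists were chosen with earlier results of these data known.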

Additional observations from a re-analysis of the deposited data

Results flagged for a closer look

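In groups of 4 libraries, a library was singled out where its gap to the nearest other one, as a share of the group's range, exceeded Dixon's 95% critical value. Of 108 groups examined, 7 passed, where chance alone gives about 1 in 20. For mt tRNAs, MR replicate 3 held 0.0110% of counts against 0.0227% to 0.0251% in the other MR libraries. For mt-Nd2, Sham replicate 4 held 1.83% of counts against 2.14% to 2.18% in the other Sham libraries. The mt-Nd2 share of mitochondrial mRNA was 8.68% in MR replicate 4 and 7.86% to 7.998% in the other MR libraries. The mt-Nd5 share of mitochondrial mRNA was 8.70% in Sham replicate 1 and 10.5% to 10.8% in the other Sham libraries. In MR replicate 3 the log2 ratio of mitochondrial to nuclear subunit counts was 3.47 for complex III and 4.39 for complex IV, above 3.21 to 3.25 and 4.18 to 4.20 in the other MR libraries. Prorp (1110008L16Rik) was at 7.46 CPM in Sham replicate 4 and 8.52 to 8.66 CPM in the other Sham libraries.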

How the results depend on the processing

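No paired analysis was possible because the groups share no replicate numbers in the labels. No mitochondrial gene was called under any of the 16 other settings of the gene fits. Over all genes, 936 were called without the filter, 618 with DESeq2, and 3 to 887 when 1 library was left out. One gene that expresses the mitochondrial genome, Ppargc1b, was called without the filter and with DESeq2, and 0 to 1 with 1 library left out. With libraries scaled by totals only, the log2 fold change was 0.0337 for mt-Nd1, 0.0398 for mt-Nd2, 0.0232 for mt-Co2, 0.0246 for mt-Co3, 0.0340 for mt-Nd4 and 0.0298 for mt-Cytb. It was 0.0406 for mt-Nd4l with its copy added, and −0.000292 for Tfam in DESeq2. Leaving out 1 library at a time moved the log2 fold change from −0.0625 to 0.0216 for mt-Nd1, −0.0703 to 0.0237 for mt-Nd2, −0.232 to 0.333 for mt-Tc, −0.152 to 0.0997 for mt-Co2, −0.153 to 0.103 for mt-Co3 and −0.243 to 0.147 for mt-Nd4l. The ranges were −0.0411 to 0.00496 for mt-Nd4, −0.0433 to 0.0644 for mt-Nd5, −0.185 to 0.115 for mt-Nd6, −0.0498 to 0.0103 for mt-Cytb and −0.0499 to 0.109 for Tfam. In the same way the difference between MR and Sham ranged from −0.264 to 0.698 points for the mitochondrial share and −0.197 to 0.715 points for the mRNA share, negative only without Sham replicate 4. It ranged from −0.0579 to 0.000737 points for the share of the copies, and from −0.00369 to 0.135 and −0.0757 to 0.191 for the log2 ratio of complexes III and V. With genes weighted equally the log2 ratio differed by −0.00797 over all complexes, −0.0278 for complex I and −0.109 for complex V. The cause of these changes was not tested. The tRNA share and mt-Tc, with few counts, were limited by depth more than the mRNAs: the widest 95% Wilson interval was 8.48% of the tRNA share and 0.102% of the mRNA share.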
